A study of Homo sapiens with 9 samples.

Results

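PARP1, genes of its family, its cofactor HPF1 and genes that remove ADP-ribose were followed through the silencing of PARP1 and of TRIM28 in 786-O cells. The set holds 10 genes chosen by symbol, by a rule that uses no measured value, though with earlier results of these data known: PARP1, PARP2, PARP3, PARP4, HPF1, PARG, TNKS, TNKS2, MACROD1 and OARD1. All 10 were found among the 61806 genes of the deposited table, and all 10 were among the 13562 that passed the filter on low counts. The question put to the data was whether the relatives and partners of PARP1 change in level when PARP1 is silenced.

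The data are 9 libraries of polyadenylated RNA from 786-O, a human line of clear cell kidney cancer in which VHL is not functional. The labels give 3 groups of 3 libraries. The control group is described as negative control siRNA, as wild type and as parental cells, the second group has TRIM28 silenced and the third has PARP1 silenced, all by transfection, with no time or further treatment given and all libraries in batch 1. The reagent is called siRNA in some labels and shRNA in another, so its kind is uncertain, and nothing says that the libraries of a group came from separate cultures, so each p-value reflects the spread of these libraries alone, and that spread may be technical.

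Poly(ADP-ribose) polymerases take ADP-ribose from NAD and attach it to proteins. PARP1 does most of this at DNA breaks, PARP2 and PARP3 act there as well, and HPF1 completes the catalytic site of PARP1 and PARP2 so that serine is modified. PARG cuts the chains, macrodomain hydrolases such as MACROD1 and OARD1 (TARG1) take off the last unit from acidic residues, the tankyrases TNKS and TNKS2 modify telomere and Wnt pathway proteins, and PARP4 sits in the vault particle.

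The libraries held 11963110 to 20224374 counts and 17977 to 20116 detected genes, with PARP1 knockdown replicate 3 the smallest in both. TRIM28 was at 316, 341 and 381 CPM (counts scaled to a common library size by TMM factors) in control, at 44.0, 54.7 and 58.0 where it was silenced and at 440, 421 and 428 in PARP1 knockdown. The renal transcription factor PAX8 was at 355, 343 and 327 CPM in the control, TRIM28 and PARP1 groups and passed in neither knockdown, while the leukocyte genes PTPRC and CD3E were at 0 in all 9 libraries. Of the clear cell carcinoma markers, CA9 was low, at 1.2 CPM in control, and NDUFA4L2 was at 0.0797. Of 9 tested renal markers, KRT8 and KRT18 rose and CDH6, HAVCR1 and VCAM1 fell in PARP1 knockdown, the last 3 from 44.9 to 12.7, from 26.6 to 8.54 and from 100 to 29.6 CPM, and all 5 were called in the same direction in TRIM28 knockdown. The part of these changes in the results below was not tested. The 10 renal markers, with most of the sum from VIM, summed to 1461.6 to 1494.8 FPKM (reads scaled by exon length and library total) over the control libraries, 1410.4 to 1552.1 over TRIM28 knockdown and 942 to 1400.3 over PARP1 knockdown. In PARP1 knockdown the log2 fold change followed the summed exon length of the gene. The median over tested genes was 0.65 in the shortest of 10 length classes and -0.67 in the longest. That class median is given below beside the members, and its part in each change was not tested.

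PARP1 (ENSG00000143799, chromosome 1, 226360210 to 226408154, minus strand) was at 178, 200 and 153 CPM in the 3 control libraries, at 94.4, 93.3 and 93.6 in TRIM28 knockdown and at 6.82, 4.48 and 5.24 in PARP1 knockdown. The 3 groups did not overlap, and the libraries labelled PARP1 knockdown kept 3.11% of the control mean, which checks the labels. The log2 fold change was -4.99 ± 0.17 (SE, n = 3 libraries per group, edgeR quasi-likelihood test, adjusted p = 4.28e-17), a level 31.7-fold below control. In bulk RNA a loss in every cell and a complete loss in most cells cannot be told apart. In TRIM28 knockdown PARP1 fell by 0.92 ± 0.14 on the log2 scale (SE, n = 3, adjusted p = 3.61e-05), to 52.9% of control, where genes of the same length class had a median of -0.39. That class rests on the deposited exon length of PARP1, 18399 bases, against 3958 in its main transcript.

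PARP2 (ENSG00000129484, chromosome 14, 20343615 to 20357904, plus strand), the closest relative of PARP1, was at 26.0, 24.8 and 19.2 CPM in control, at 12.8, 10.4 and 11.9 in TRIM28 knockdown and at 9.60, 9.05 and 4.65 in PARP1 knockdown. Every control library lay above every knockdown library, and the lowest value was that of PARP1 knockdown replicate 3. PARP2 fell in PARP1 knockdown, with a log2 fold change of -1.57 ± 0.21 (SE, n = 3, adjusted p = 7.64e-07), to 33.3% of the control mean, and in TRIM28 knockdown by 1.00 ± 0.20 (adjusted p = 0.000769). Tested genes of like exon length had medians of 0.09 and 0.08 in these comparisons. Between the knockdowns the difference of -0.57 (95% interval -0.99 to -0.15) had an adjusted p of 0.0517. PARP2 overlaps a tested gene without symbol on the opposite strand, ENSG00000259001, which was at 25.5, 21.0 and 48.8 CPM in the 3 groups in that order. The sources used here do not give the strand setting of the counting, so how reads from their 104 shared exon bases were counted is not known.

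PARP3 (ENSG00000041880, chromosome 3, 51942345 to 51948867, plus strand), which acts with end-joining factors at double-strand breaks, was at 25.1, 21.9 and 27.8 CPM in control, at 27.4, 28.9 and 31.3 in TRIM28 knockdown and at 29.7, 28.1 and 29.9 in PARP1 knockdown. The lowest PARP1 knockdown library lay just above the highest control library. The log2 fold change of 0.23 ± 0.14 (SE, n = 3, 95% interval -0.05 to 0.51, adjusted p = 0.173) did not pass. Genes of like length had a median of 0.26. Without control replicate 3 the value was 0.36 and passed (adjusted p = 0.0405), while under 5 alternatives, library totals without TMM factors among them, its sign turned.

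HPF1 (ENSG00000056050, chromosome 4, 169729470 to 169757944, minus strand), the cofactor of PARP1 and PARP2, was at 5.39, 4.50 and 4.52 CPM in control, at 4.11, 3.43 and 3.74 in TRIM28 knockdown and at 2.65, 2.20 and 1.39 in PARP1 knockdown. The groups formed 3 steps with no overlap. Of its 75-base windows 3.2% occur in another gene. HPF1 fell in PARP1 knockdown, with a log2 fold change of -1.18 ± 0.27 (SE, n = 3, adjusted p = 0.000627), to 43.3% of control. It is in the class of shortest exon length, whose median was 0.65, and its value less that median was -1.82. In TRIM28 knockdown the log2 fold change of -0.35 (95% interval -0.84 to 0.14) did not pass, and HPF1 was lower in PARP1 knockdown than in TRIM28 knockdown by the test of that difference, at -0.83 ± 0.28 (adjusted p = 0.0329). That last call was lost under 8 of 21 alternatives, among them leaving out control replicate 2, any TRIM28 knockdown library or PARP1 knockdown replicate 2 or 3, with adjusted p up to 0.159.

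The promoters of these 4 genes are shown because PARP1, the silenced gene, stands beside a relative that fell (PARP2), a relative that did not pass (PARP3) and the cofactor that fell (HPF1). Each runs from 250 bases before to 50 after the RefSeq start in GRCh38.p14, 5′ to 3′ on the gene's strand, at chr1:226408044-226408343 (minus), chr14:20343385-20343684 (plus), chr3:51942113-51942412 (plus) and chr4:169757895-169758194 (minus). Capitals mark exact matches, direct or as the reverse complement. The GC box searched for is GGGCGG. The ETS motif is CCGGAAG, and the CCAAT box is the letters of its name. No 2 matches overlap in these windows.
PARP1: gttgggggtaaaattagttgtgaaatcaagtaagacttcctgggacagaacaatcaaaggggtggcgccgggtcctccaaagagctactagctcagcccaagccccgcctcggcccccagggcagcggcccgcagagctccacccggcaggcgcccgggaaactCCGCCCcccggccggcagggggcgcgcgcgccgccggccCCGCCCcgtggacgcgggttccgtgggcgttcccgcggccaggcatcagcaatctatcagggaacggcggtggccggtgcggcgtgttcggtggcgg
PARP2: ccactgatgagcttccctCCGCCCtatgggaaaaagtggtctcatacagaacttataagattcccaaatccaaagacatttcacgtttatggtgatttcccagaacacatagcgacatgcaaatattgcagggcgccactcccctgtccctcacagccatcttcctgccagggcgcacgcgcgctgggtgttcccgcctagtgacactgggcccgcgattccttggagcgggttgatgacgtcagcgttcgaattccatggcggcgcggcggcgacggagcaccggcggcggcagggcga
PARP3: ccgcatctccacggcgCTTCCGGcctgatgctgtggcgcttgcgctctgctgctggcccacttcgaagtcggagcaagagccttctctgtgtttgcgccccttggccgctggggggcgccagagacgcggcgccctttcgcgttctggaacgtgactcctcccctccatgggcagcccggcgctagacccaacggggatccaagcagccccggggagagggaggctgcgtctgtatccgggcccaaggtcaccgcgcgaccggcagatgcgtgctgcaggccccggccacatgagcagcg
HPF1: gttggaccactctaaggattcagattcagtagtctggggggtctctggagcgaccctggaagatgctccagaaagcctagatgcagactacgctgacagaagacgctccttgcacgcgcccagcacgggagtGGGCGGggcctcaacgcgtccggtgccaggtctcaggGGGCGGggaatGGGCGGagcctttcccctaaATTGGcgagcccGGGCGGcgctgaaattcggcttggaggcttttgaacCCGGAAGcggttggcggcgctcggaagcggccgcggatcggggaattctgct
PARP1 held 2 GC boxes, PARP2 1, PARP3 none and HPF1 4, with an ETS match in PARP3 and HPF1 and a CCAAT box in HPF1. Of the 35116 promoters in the table, 45% hold a GC box, 34.6% a CCAAT box and 10.3% the ETS motif. A search for a TATA box (TATAAA) found no match in these 4 windows, and 11.5% of all promoters hold one. The GC content was 70.0% in PARP1, 58.3% in PARP2, 69.3% in PARP3 and 63.3% in HPF1, beside a median of 58.7% over all. The PARP2 window also reaches the start of RPPH1, the RNA of RNase P, which lies head to head with it and was at 0 counts in all 9 libraries. A match is a description of the letters and no site of binding. In all, 8 of the 10 members matched the table, without PARP4 and TNKS.

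**Figure D1:**
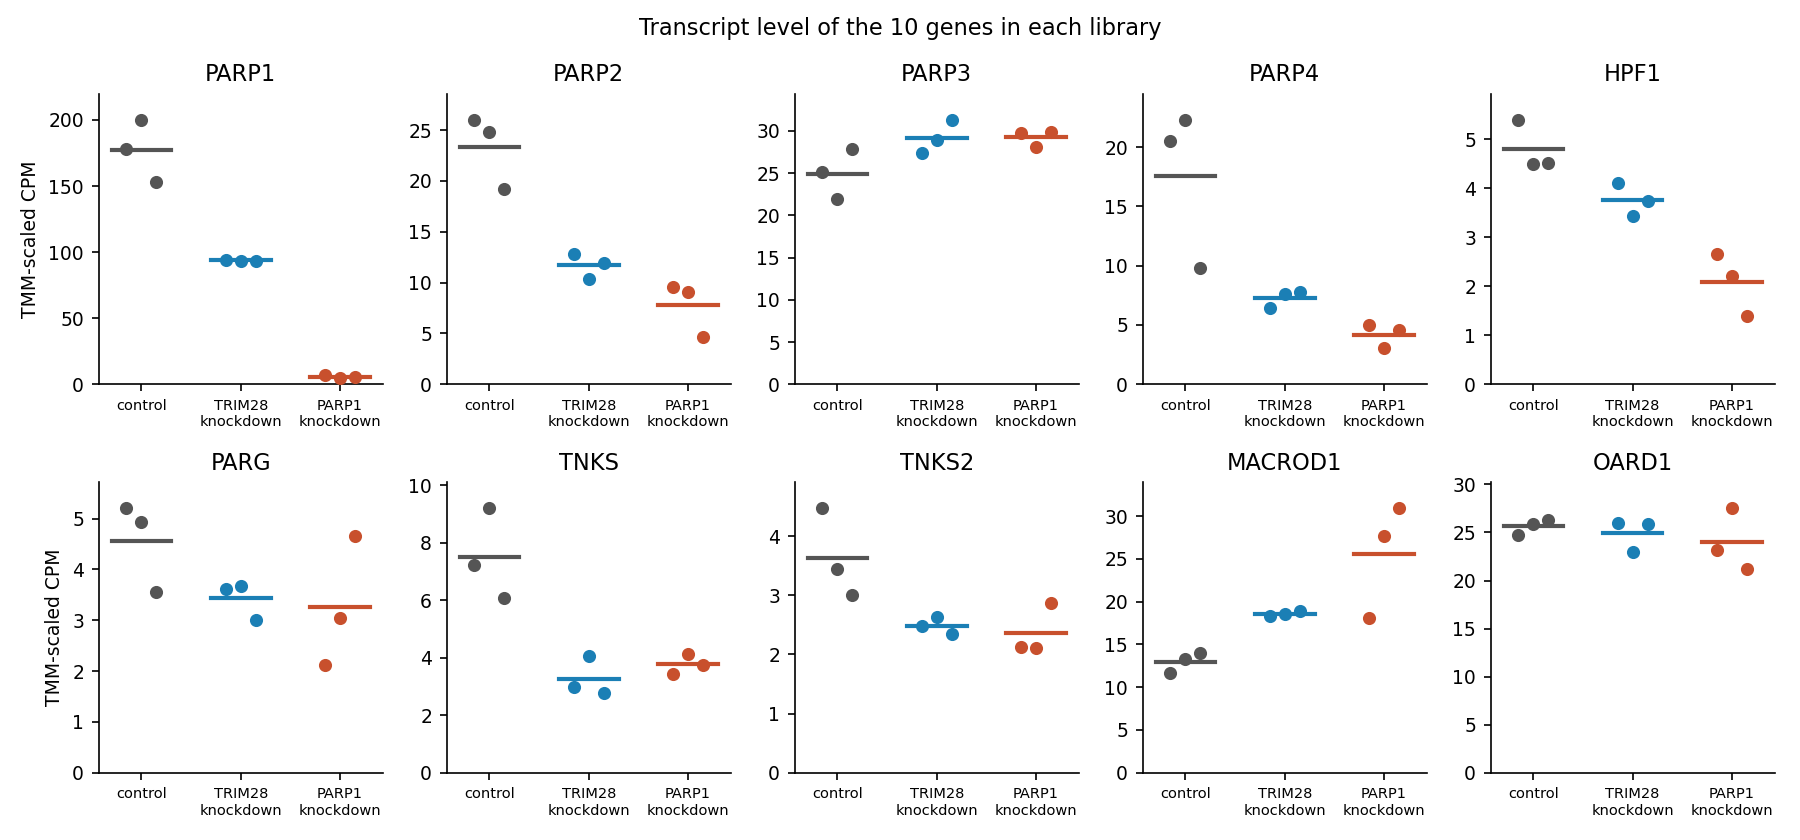
TMM-scaled CPM (vertical axes, each from 0) of the 10 genes in the 9 libraries, with 1 point per library in replicate order and a line at the group mean. PARP1, PARP2, PARP4, HPF1, TNKS and TNKS2 were lower in every PARP1 knockdown library than in every control library, and MACROD1 and PARP3 were higher, of which TNKS2 and PARP3 did not pass the test.

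PARP4 (ENSG00000102699, chromosome 13, 24420931 to 24512778, minus strand), the vault PARP, had the largest fall of the members other than PARP1. It was at 20.5, 22.3 and 9.82 CPM in control, at 6.47, 7.65 and 7.78 in TRIM28 knockdown and at 4.97, 3.04 and 4.55 in PARP1 knockdown. Control replicate 3 lay well below the other controls but still above all knockdown libraries. Of the 75-base windows of PARP4, 5.67% occur in its near copy PARP4P2, which had at most 2 counts in any library. The log2 fold change was -2.06 ± 0.26 in PARP1 knockdown (SE, n = 3, adjusted p = 3.5e-07) and -1.26 ± 0.24 in TRIM28 knockdown (adjusted p = 0.000459), beside medians of -0.38 and -0.17 for genes of like length. The direct difference between the knockdowns was -0.79 ± 0.27 (adjusted p = 0.0323), a call lost under 10 of 21 alternatives, among them leaving out any TRIM28 knockdown library or PARP1 knockdown replicate 2 or 3. The vault shell protein MVP rose in PARP1 knockdown, from 313 ± 20.6 to 477 ± 6.69 CPM (SD, n = 3, log2 fold change 0.60, adjusted p = 0.000178). The vault protein TEP1 stood at 11.4 and 9.71 CPM (adjusted p = 0.355).

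Of the tankyrases, TNKS (ENSG00000173273, chromosome 8, 9555912 to 9782346, plus strand) was at 7.22, 9.20 and 6.08 CPM in control, at 2.99, 4.06 and 2.77 in TRIM28 knockdown and at 3.44, 4.14 and 3.76 in PARP1 knockdown. Both knockdowns lay below control with no overlap and overlapped each other. TNKS fell by 0.99 ± 0.24 on the log2 scale in PARP1 knockdown (SE, n = 3, adjusted p = 0.0011) and by 1.2 ± 0.24 in TRIM28 knockdown (adjusted p = 0.000773). It is in the class of longest exon length, whose medians were -0.67 and -0.39. With the length trend removed the PARP1 knockdown value was -0.36 (adjusted p = 0.187) and the TRIM28 knockdown value -0.82 (adjusted p = 0.01). TNKS2 (ENSG00000107854, chromosome 10, 91798426 to 91865475, plus strand) was at 4.47, 3.44 and 3.00 CPM in control and at 2.12, 2.11 and 2.87 in PARP1 knockdown. These did not overlap, but the log2 fold change of -0.63 (95% interval -1.18 to -0.07) had an adjusted p of 0.0577. Genes of like length had a median of -0.38, and with the length trend removed the TNKS2 value was -0.32 (adjusted p = 0.345). TNKS2 passed without control replicate 3 (-0.71, adjusted p = 0.0343) or without PARP1 knockdown replicate 3 (-0.78, adjusted p = 0.04). It also passed with library totals (-0.96, adjusted p = 0.00609) and with limma without a filter (-0.3, adjusted p = 0.044). In TRIM28 knockdown TNKS2 was at 2.49, 2.63 and 2.35 CPM. The log2 fold change of -0.55 (adjusted p = 0.137) did not pass, beside a class median of -0.17.

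Among the erasers, PARG (ENSG00000227345, chromosome 10, 49818279 to 49970203, minus strand) was at 5.2, 4.94 and 3.55 CPM in control, at 3.61, 3.67 and 3.01 in TRIM28 knockdown and at 2.12, 3.04 and 4.65 in PARP1 knockdown. The 3 groups overlapped, and the PARP1 knockdown libraries spread most. The log2 fold change of -0.51 (95% interval -1.06 to 0.04, adjusted p = 0.123) did not pass, although it did without PARP1 knockdown replicate 3, at -0.83 (adjusted p = 0.0206). It also passed with library totals, at -0.85 (adjusted p = 0.0153). With limma it passed on log2(FPKM + 1), at -0.36 (adjusted p = 0.0259), and on log2(FPKM + 0.1), at -0.75 (adjusted p = 0.0303). Genes of like length had a median of -0.16, and with the length and GC trends removed the PARG value was 0.09 (adjusted p = 0.809). PARG reads are uncertain where they match its near copy PARGP1, which holds 21.4% of the 75-base windows of PARG and was at 0.902, 0.747 and 0.862 CPM in the 3 groups.

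MACROD1 (ENSG00000133315, chromosome 11, 63998558 to 64166113, minus strand) was the member that rose. It was at 11.7, 13.3 and 14 CPM in control, at 18.3, 18.6 and 18.9 in TRIM28 knockdown and at 18.1, 27.7 and 30.9 in PARP1 knockdown. All knockdown libraries lay above all controls, and PARP1 knockdown replicate 1 lay just below the TRIM28 knockdown values. The log2 fold change was 0.97 ± 0.18 in PARP1 knockdown (SE, n = 3, adjusted p = 4.04e-05) and 0.52 ± 0.18 in TRIM28 knockdown (adjusted p = 0.0297), beside class medians of 0.50 and 0.26. Its main transcript has the highest GC content of the members, 67.3%, and with the length and GC trends removed the PARP1 knockdown value was -0.18 (adjusted p = 0.266), so that its direction turned. The TRIM28 knockdown call was lost under 11 of 21 alternatives, among them leaving out control replicate 1 or 2 or any TRIM28 knockdown library (adjusted p 0.0661 to 0.127). On the opposite strand MACROD1 overlaps OTUB1, which stood at 105, 164 and 233 CPM in the 3 groups. The 2 genes share no exon base in GENCODE 29.

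OARD1 (ENSG00000124596, chromosome 6, 41033627 to 41097787, minus strand) was at 24.7, 25.9 and 26.3 CPM in control, at 26.0, 23.0 and 25.9 in TRIM28 knockdown and at 23.2, 27.5 and 21.2 in PARP1 knockdown. The groups overlapped, and the log2 fold change of -0.09 ± 0.15 (SE, n = 3, 95% interval -0.38 to 0.19, adjusted p = 0.595) did not pass. Genes of like length had a median of -0.38. The call and sign of OARD1 depended on the scaling: -0.42 with library totals (adjusted p = 0.0225) and 0.61 with length and GC trends removed (adjusted p = 0.00104). OARD1 shares 75 exon bases with NFYA on the opposite strand, at 21.9, 13.8 and 8.89 CPM in the 3 groups. It shares 747 with UNC5CL on the same strand, at 0.764, 0.581 and 0.632 CPM. How reads from these shared bases were counted is not known.

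In PARP1 knockdown 1 member rose, 5 fell with PARP1 itself among them, and 4 did not pass. Of all tested genes 59.3% were called, 27.1% higher and 32.2% lower, so that being called was common. Without PARP1, 4 of 9 members fell, and their median log2 fold change was -0.63 beside -0.07 over all tested genes. In 8 of the 10 the PARP1 knockdown and control libraries did not overlap, as in 63.5% of tested genes. Falls of at least 2-fold made up 18.8% of tested genes, and PARP1, PARP2, PARP4 and HPF1 were such falls. The groups did not overlap in 7 members in TRIM28 knockdown against control, as in 46.4% of tested genes, and in 4 between the knockdowns, as in 39.4%. In TRIM28 knockdown 1 member rose, 4 fell and 5 did not pass, where 27.8% of tested genes were called, 10.3% higher and 17.5% lower. Between the knockdowns 3 members were lower in PARP1 knockdown and none was higher, where 25.1% of tested genes were called, 11.9% higher and 13.2% lower. Both knockdowns were compared with the same 3 control libraries.

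**Figure D2:**
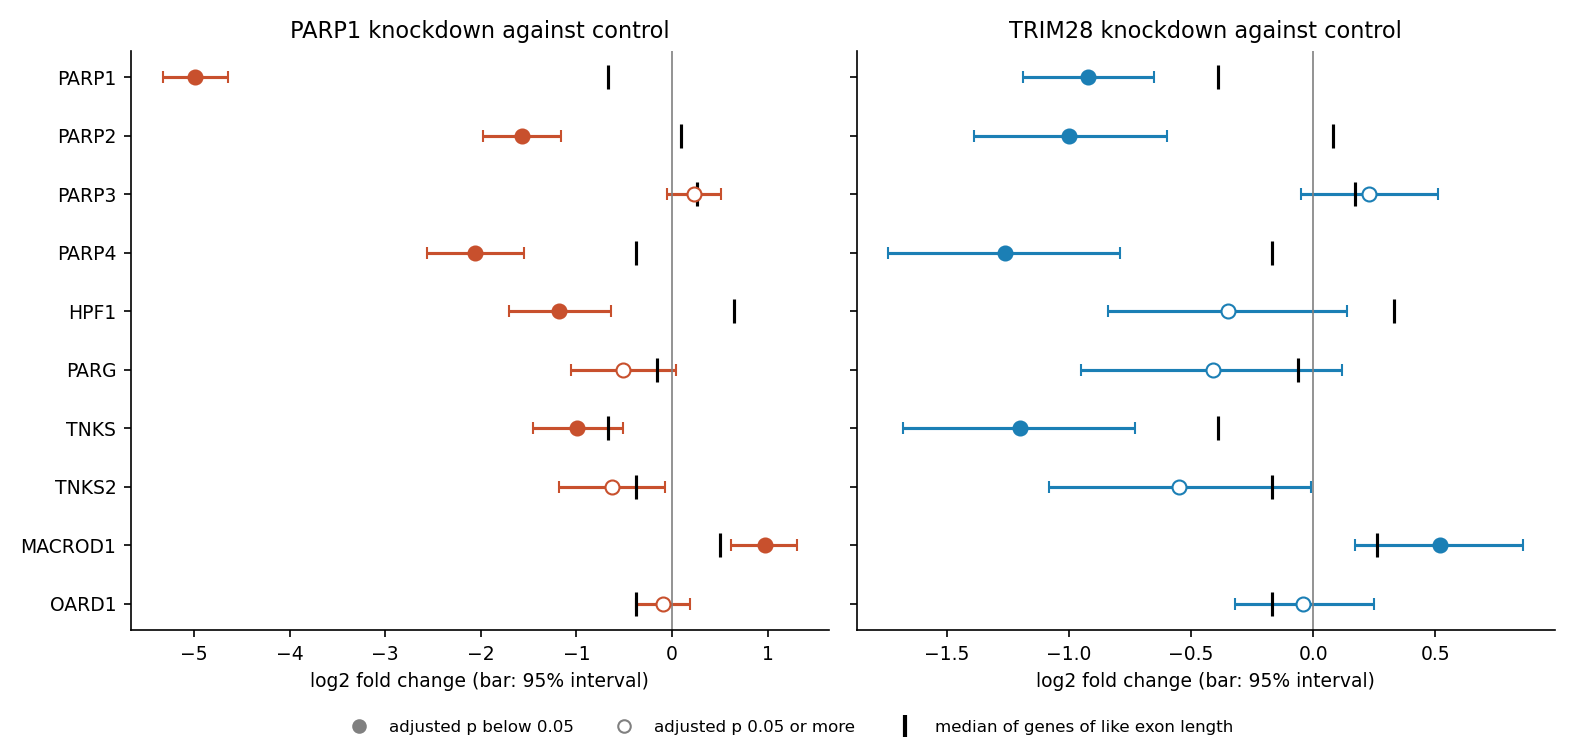
Log2 fold change of each gene with its 95% interval (horizontal axes, differing in range) in PARP1 knockdown and TRIM28 knockdown against control. Filled points have an adjusted p below 0.05, and black ticks are the median of tested genes of like exon length. PARP2, PARP4 and HPF1 lie left of their ticks in PARP1 knockdown, and PARP3 lies on its tick.

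Falls of PARP1, PARP2, PARP4 and HPF1 in PARP1 knockdown passed under all 21 alternatives, with log2 fold changes of -1.91 to -1.14 for PARP2, -2.39 to -1.35 for PARP4 and -1.67 to -0.98 for HPF1. With the length and GC trends removed PARP2 stood at -1.14 (adjusted p = 4.08e-05), PARP4 at -1.36 (adjusted p = 0.000143) and HPF1 at -1.32 (adjusted p = 0.000511). Under that setting the values of PARG, TNKS and TNKS2 were 0.09, 0.03 and 0.08. The fall of TNKS and the rise of MACROD1 were thus no longer called, and OARD1 was called higher.

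**Figure D3:**
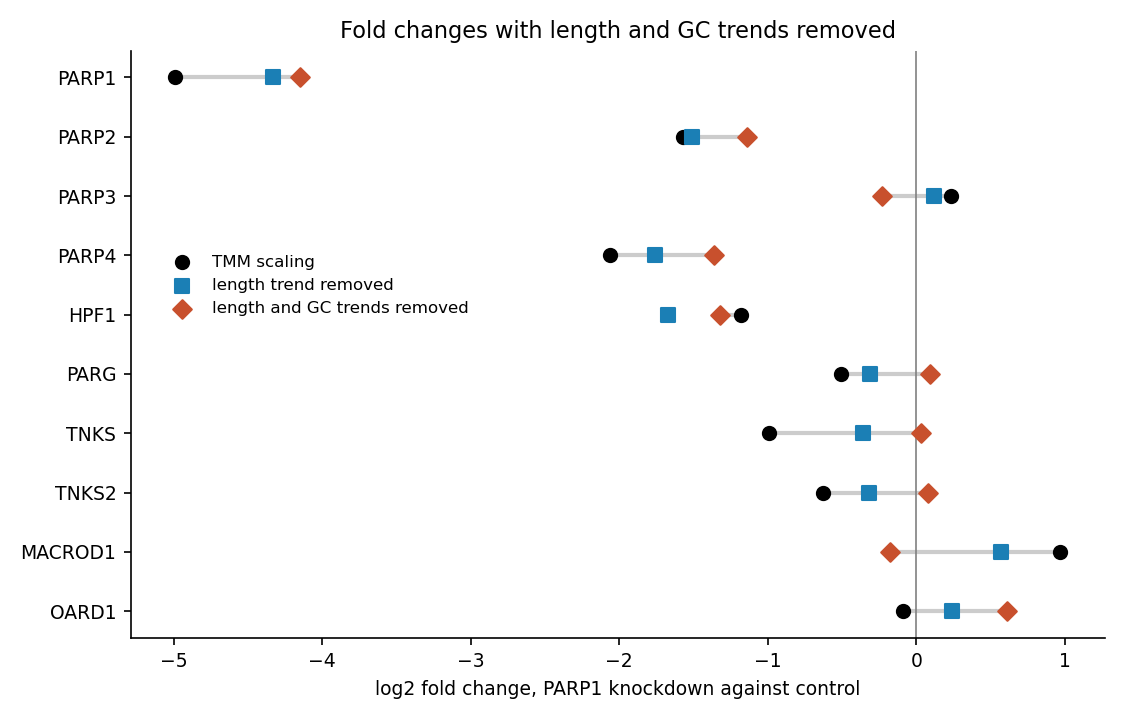
Log2 fold change in PARP1 knockdown against control (horizontal axis) with TMM scaling, after removal of each library's length trend and after removal of both the length and the GC trend. PARP1, PARP2, PARP4 and HPF1 stay below -1 in all 3, while MACROD1 goes from 0.97 to -0.18 and OARD1 from -0.09 to 0.61.

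Levels of different genes were compared per length, on the deposited FPKM scale, which uses library totals. The place of PARP1 in this order rests on a deposited exon length far above that of its main transcript, and its level is higher with the shorter length. In control PARP1 stood first at 10.8 ± 1.72 FPKM (SD, n = 3), followed by PARP3 at 8.70 ± 0.845, MACROD1 at 6.93 ± 0.413 and PARP2 at 6.45 ± 1.21. The ranges of PARP1 (8.92 to 12.31) and PARP3 (7.74 to 9.32) overlapped, as did those of MACROD1 and PARP2. OARD1 at 4.39, HPF1 at 3.79 and PARP4 at 3.28 FPKM came next, and PARG at 0.993, TNKS2 at 0.653 and TNKS at 0.593 were lowest. In PARP1 knockdown MACROD1 at 10.7 ± 2.12 and PARP3 at 8.15 ± 0.735 led, and PARP1 was at 0.27 ± 0.0794, beside 0.233 for TNKS.

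PARP1 made up 41.5 ± 3.81% of the summed FPKM of the 3 break-response PARPs in control (SD, n = 3), 29.8 ± 1.1% when TRIM28 was silenced and 2.63 ± 0.468% when PARP1 was. PARP3 held 33.8%, 53.4% and 80.7%, and PARP2 24.7%, 16.8% and 16.7%. The summed FPKM of the 3 genes was 25.9 ± 2.3, 17.1 ± 0.897 and 10.1 ± 1.31, and that of PARP2 and PARP3 alone was 15.2 ± 1.1, 12 ± 0.807 and 9.87 ± 1.24. The larger share of PARP3 in PARP1 knockdown thus went with a lower sum. PARP1 was silenced there by design, which by itself lowers the sum of the 3 and raises the share of PARP3. These sums rest on library totals. In TMM-scaled CPM, PARP3 had means of 24.9 in control and 29.2 in PARP1 knockdown, and PARP2 of 23.3 and 7.77. The deposited exon length of PARP1 is 18399 bases, against 3958 in its main transcript. With main transcript lengths PARP1 held 66.4%, 56.9% and 8.01%.

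**Figure D4:**
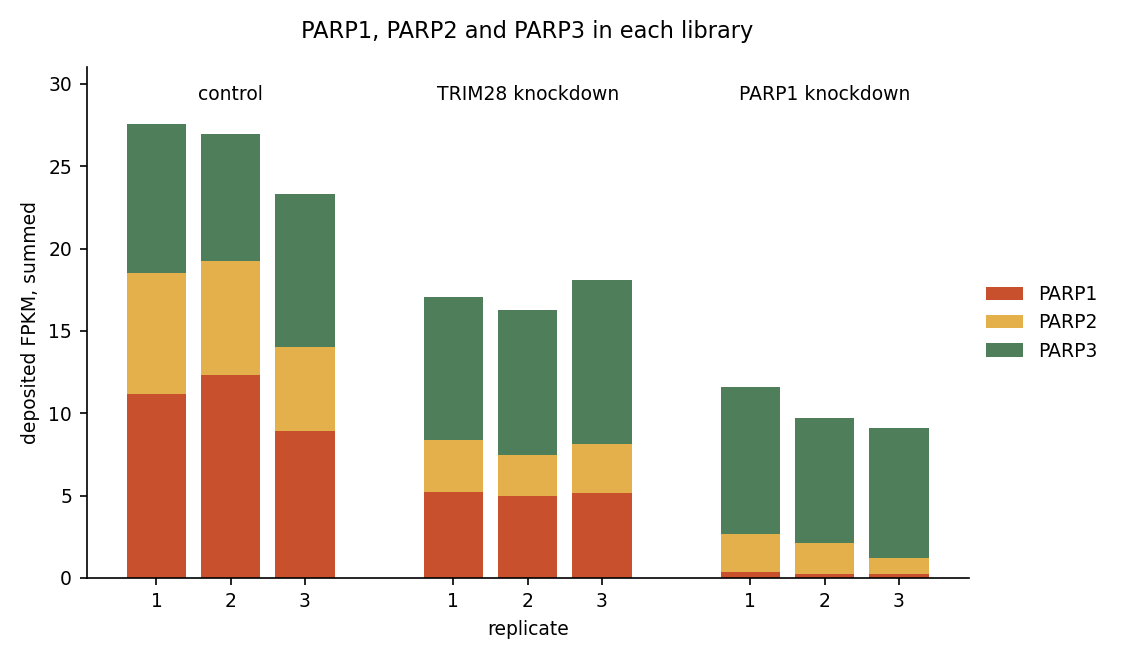
Deposited FPKM of PARP1, PARP2 and PARP3 stacked for each of the 9 libraries (vertical axis from 0). The stack falls from 23.3 or more in control to 11.6 or less in PARP1 knockdown, where PARP3 makes up most of it.

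Around the members, 6 lists of ADP-ribosylation genes held 50 further genes that were tested, and in PARP1 knockdown 11 of them rose and 19 fell, close to the 59.3% of all tested genes that were called (27.1% higher, 32.2% lower). With the length and GC trends removed 14 list genes rose and 13 fell, beside 3198 and 3008 of all genes. With the length trend alone removed 15 rose and 10 fell, beside 3883 and 3360, and with library totals 7 and 24, beside 2024 and 5803. The balance of directions followed the scaling in the lists as in all genes. The counts of each list below are read against 27.1% of all tested genes higher and 32.2% lower. The median log2 fold change of each list is read against -0.07 over all tested genes.

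Of 7 tested genes listed as erasers or related to them, outside the set, 1 rose, 3 fell and 3 did not pass. Their median log2 fold change was -0.48. ADPRS (ARH3), which removes ADP-ribose from serine and so undoes the HPF1-dependent mark, went from 89.2 ± 8.86 to 202 ± 43.9 CPM (SD, n = 3, log2 fold change 1.18 ± 0.15 SE, adjusted p = 3.09e-07). Removal of both trends left it at 0.24 (adjusted p = 0.0819). The ADP-ribose pyrophosphatase NUDT9 fell from 24.2 ± 3.06 to 9.45 ± 1.41 CPM (log2 fold change -1.35, adjusted p = 7.64e-07) and the phosphodiesterase ENPP1 from 7.19 to 1.90 (-1.93, adjusted p = 8.32e-06), both also with these trends removed. ADPRHL1, a relative of the hydrolases, fell by 0.87 (adjusted p = 0.0264) and lost its call with length removed and without control replicate 2 or 3 or PARP1 knockdown replicate 2 or 3.

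Among 11 tested readers and break-repair partners 2 rose, 5 fell and 4 did not pass, with a median of -0.01. RNF146, the ubiquitin ligase that recognises poly(ADP-ribose), fell from 11.9 ± 3.06 to 3.22 ± 0.804 CPM (log2 fold change -1.88, adjusted p = 8.54e-07) and kept its call under every alternative. LIG3, the ligase of single-strand break repair, and TRIP12, a ubiquitin ligase of PARP1, fell by 0.88 and 0.98 (adjusted p = 8.8e-05 and 0.000546). With the length and GC trends removed neither was called. The single-strand break repair scaffold XRCC1 rose by 0.35 (adjusted p = 0.0254). It lost its call under 10 alternatives, among them leaving out control replicate 1 or 2 or PARP1 knockdown replicate 1. Removal of both trends turned its sign, and XRCC1 was then called lower (-0.29, adjusted p = 0.0226).

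For NAD supply and use, 5 of 9 tested genes rose, 1 fell and 3 did not pass, with a median of 0.44. Of all tested genes 27.1% rose and 32.2% fell, and the median was -0.07. QPRT of the de novo route rose from 13.0 ± 1.02 to 24.2 ± 1.89 CPM (log2 fold change 0.89, adjusted p = 2.39e-05), the NAD synthetase NADSYN1 from 34.3 to 57.1 (0.73, adjusted p = 0.000187) and NAPRT, which uses nicotinic acid, from 4.07 to 8.91 (1.12, adjusted p = 0.000184). NAMPT, the rate-limiting enzyme of salvage from nicotinamide, fell from 43.1 ± 10.1 to 19.2 ± 0.599 CPM (-1.16, adjusted p = 2.27e-06). With the length and GC trends removed QPRT and NADSYN1 were still called, at 0.52 and 0.92, and NAPRT and NAMPT were not, at 0.13 and -0.27. NADSYN1 lost its call with limma without a filter.

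Of 12 tested tankyrase partners and targets 1 rose, 9 fell and 2 did not pass, with a median of -0.75, where 32.2% of all tested genes fell and the median was -0.07. Their median exon length of 8783.5 bases places many of them among the long genes. In the length class that holds this value, 48.7% of genes were called lower and the median was -0.56. RNF146 is on the tankyrase list too. The telomere repeat binding protein TERF1 fell from 19.2 to 7.56 CPM (log2 fold change -1.34, adjusted p = 1.44e-06) and the angiomotin AMOTL1 from 6.07 to 1.86 (-1.71, adjusted p = 3.08e-05). With the length and GC trends removed AMOTL1 was at -0.95 (adjusted p = 0.011) and TERF1 at -0.31 (adjusted p = 0.0854). The Wnt scaffold AXIN1 rose by 0.63 (adjusted p = 0.000511) and lost its call with library totals and with limma on FPKM.

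Of 10 other tested PARP family genes 1 rose, 2 fell and 7 did not pass, with a median of -0.25. PARP9 fell from 10.6 ± 2.82 to 2.73 ± 1.28 CPM (log2 fold change -1.93, adjusted p = 3.66e-06) and TIPARP, a target of the aryl hydrocarbon receptor, from 32.6 ± 9.75 to 11.9 ± 1.03 (-1.45, adjusted p = 5.04e-07). PARP10 rose from 16.5 ± 2.94 to 30.6 ± 6.22 CPM (0.89, adjusted p = 9.15e-05).

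In TRIM28 knockdown 14 of the 50 list genes were called, 5 higher and 9 lower, close to the 27.8% of all tested genes (10.3% higher, 17.5% lower), and with the length and GC trends removed 8 and 3. ADPRS was at 120 CPM there (log2 fold change 0.42, adjusted p = 0.0318), NUDT9 at 15.8 (-0.61, adjusted p = 0.0103) and RNF146 at 6.09 (-0.95, adjusted p = 0.00396). Each of the 3 differed between the knockdowns in the direct test, with adjusted p of 0.00106, 0.00534 and 0.0119. So did ENPP1 (0.027), TERF1 (0.00589), AMOTL1 (0.0303) and TIPARP (0.0254), which were called lower in TRIM28 knockdown as well. These calls of single list genes in TRIM28 knockdown and between the knockdowns were not followed under the alternatives. Between the knockdowns 3407 of all tested genes were called, and 1839 with the length and GC trends removed. Of the other named list genes called in TRIM28 knockdown, the direct test did not pass for QPRT (adjusted p = 0.197), NAMPT (0.215), TRIP12 (0.856), NADSYN1 (0.118), XRCC1 (0.977), PARP9 (0.0578) and MVP (0.155).

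**Figure D5:**
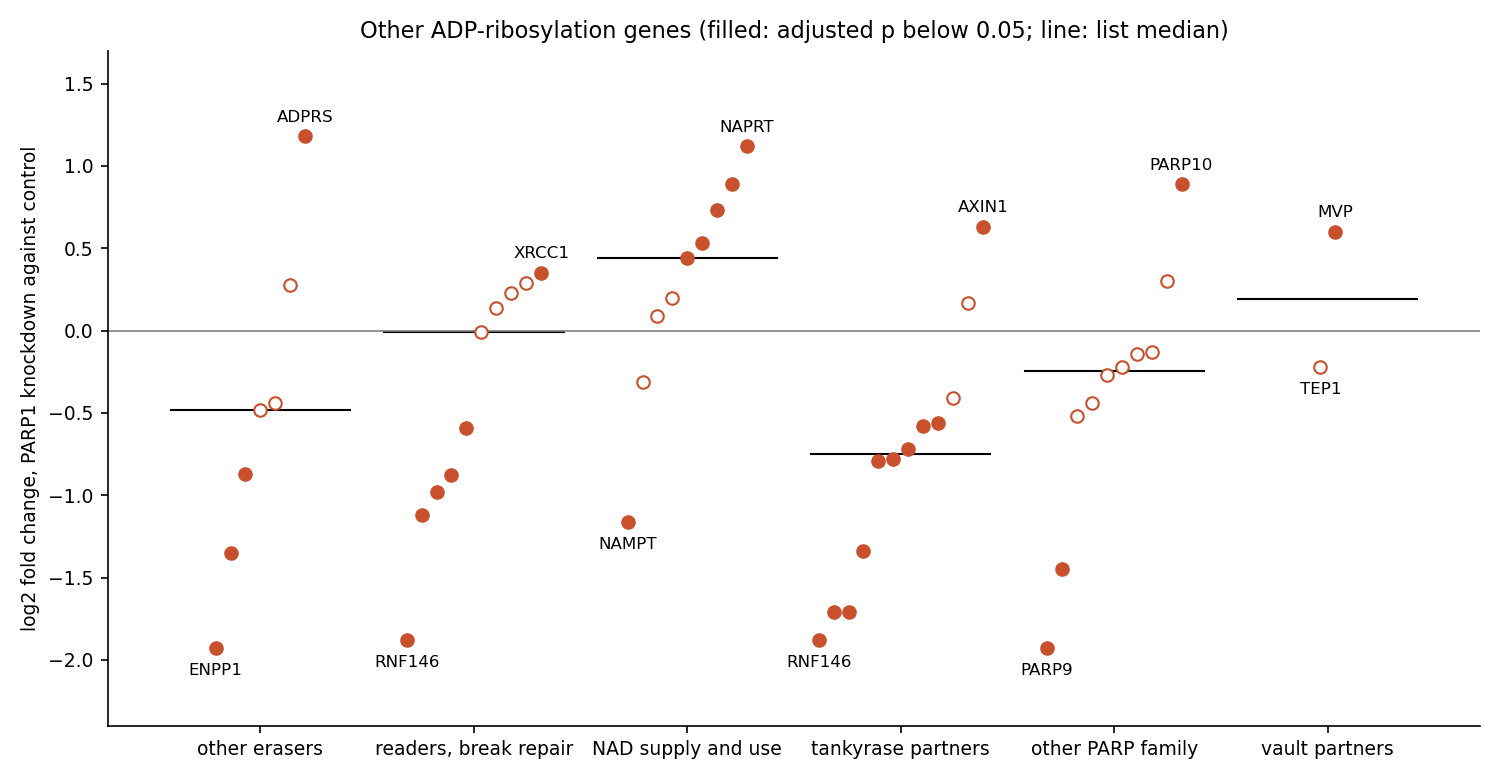
Log2 fold change in PARP1 knockdown against control (vertical axis) of the tested genes of the 6 lists except 1 that is not shown, filled where the adjusted p was below 0.05, with a line at the median of all tested genes of each list. Medians run from -0.75 for tankyrase partners to 0.44 for NAD supply and use, and the lowest and highest genes shown in each list are named.

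The gene most like PARP1 over the 9 libraries, by Pearson's r of log2 CPM among 8462 genes, was RNASEH1 (r = 0.996), which removes RNA from RNA-DNA hybrids. Its mean CPM was 27.6, 17.4 and 1.44 in the control, TRIM28 and PARP1 groups, and its log2 fold change with PARP1 silenced was -4.22. SLC36A1 (0.992), PAK1IP1 (0.989), IDH3A (0.989) and SLC2A3 (0.987) came next, and 7.8% of the genes compared had an r over 0.9. PARP1 was silenced by design in 3 of these libraries, so r follows that group. For PARP2 the leading genes were PRICKLE1 (0.996), RIPK1, FBXW11 and SRGAP2 (0.994 each) and GJC1 (0.993), and 17.3% of genes had an r over 0.9.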

How the data were processed

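Polyadenylated RNA of 9 libraries (3 control, 3 TRIM28 knockdown, 3 PARP1 knockdown) was sequenced after a directional kit, per the labels. The submitters' processing notes name STAR 2.7.9a, featureCounts 2.0.1, FastQC 0.11.9, Trim Galore 0.6.6, R 4.0.3, DESeq2 1.30.0 and the build GRCh38. Annotation release and strand setting: not given in the sources used here. Raw counts and FPKM per gene were deposited by the authors, per the file headers, with FPKM equal to the count over exon length and library total within rounding. The members and lists were chosen with earlier results of these data known.

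The test on counts was that of edgeR 4.0.16, run in R 4.3.3 (quasi-likelihood, two-sided, TMM, filterByExpr) in 1 fit of 9 libraries and 3 groups with 6 residual degrees of freedom and no covariate, with Benjamini-Hochberg adjustment over 13562 genes at 0.05. The biological coefficient of variation was 0.149. Intervals are the log2 fold change ± 1.96 SE. Length classes are 10 equal classes of tested genes by exon length. Trends of length, or length and GC (known for 98.7% of tested genes), were fitted per library by lowess (span 0.3) and taken out. Other alternatives were DESeq2 1.42.0, its size factors in edgeR, library totals, other filters, limma 3.58.1 on log2(FPKM + 1) or log2(FPKM + 0.1), whose fold changes understate low genes, a replicate block, fits of the 2 compared groups and leaving out 1 library at a time. Some list genes are not reported here. All 10 members are named, and from each list up to 3 genes per direction by smallest adjusted p in PARP1 knockdown. Likeness used genes with a mean FPKM of at least 1 and a prior count of 2. The fits were tried on simulated counts with a small part of the genes changed and no length or GC trend. That run therefore cannot speak to the trends seen here. No 2 libraries of a group agreed within sampling noise. Promoters are from RefSeq, GRCh38.p14, and shared exon bases and transcripts from GENCODE 29. Figures were made with matplotlib 3.10.9 in Python 3.11.15.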

Additional observations from a re-analysis of the deposited data

How the results depend on the processing

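Fold changes of members in every comparison were recomputed under up to 21 alternatives, and those of named list genes in PARP1 knockdown against control alone. Of these 1032 values, 922 kept their direction and side of the threshold, 60 lost a call, 24 gained one and 26 turned sign. The causes were not tested. Depth limits PARG, HPF1, TNKS and TNKS2, at a few CPM.

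After removal of length and GC trends, log2 fold changes of PARP1 knockdown against control turned to -0.23 for PARP3, 0.09 for PARG, 0.03 for TNKS, 0.08 for TNKS2, -0.18 for MACROD1, 0.61 for OARD1, -0.29 for XRCC1 and 0.04 for TRIP12. In TRIM28 knockdown they turned to -0.03 for PARP3 and 0.36 for OARD1, and between the knockdowns to 0.18 for PARG, 0.23 for TNKS2, -0.28 for MACROD1 and 0.25 for OARD1. With the length trend alone removed, OARD1 turned to 0.24, 0.16 and 0.08 in the 3 comparisons and TNKS2 to 0.05 between the knockdowns. PARP3 in PARP1 knockdown turned to -0.09 with library totals, -0.08 with limma on log2(FPKM + 1), with or without a filter, and -0.09 with a pseudocount of 0.1. Leaving out libraries turned OARD1 in TRIM28 knockdown (-0.06 to 0.05 over the libraries left out), PARG between the knockdowns (-0.42 to 0.16, the highest without PARP1 knockdown replicate 1) and OARD1 between the knockdowns (-0.17 to 0.02, the highest without PARP1 knockdown replicate 3).

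In PARP1 knockdown the counts stayed within 1.5 times under every alternative, from 6206 to 8295 genes, 5 to 9 members and 25 to 33 list genes. In TRIM28 knockdown 5 members were called and 3 with each of the limma fits. Of the list genes 14 were called, against 9, 8 and 1 with limma on log2(FPKM + 1), log2(FPKM + 0.1) and without filter, and 5 to 18 with 1 library left out, where dropping control replicate 1 or 2, or replicate 2 or 3 of TRIM28 knockdown, gave 5 to 7. Of all genes 3768 were called, against 2353 with limma on log2(FPKM + 0.1), 1069 without filter and 1537 to 4935 with 1 library left out (1537 and 1855 when control replicates 1 and 2 were dropped, 2116 when replicate 2 of TRIM28 knockdown was). Between the knockdowns 3 members were called, against 5 with DESeq2, 1 with limma without filter and 1 to 5 with 1 library left out (1 without any TRIM28 knockdown library or PARP1 knockdown replicate 2 or 3, 5 without PARP1 knockdown replicate 1). Of all genes 3407 were called, against 63 with limma without filter, 1839 with length and GC trends removed and 1654 to 4714 with 1 library left out (1654 and 2254 without TRIM28 knockdown replicates 1 and 3, 2149 and 1712 without PARP1 knockdown replicates 2 and 3). With library totals, 25.9% of called genes were higher in PARP1 knockdown (45.8% with TMM), 13.7% in TRIM28 knockdown (37%) and 21.4% between the knockdowns (47.3%). The share of PARP1 in the summed FPKM moved from 41.5%, 29.8% and 2.63% to 66.4%, 56.9% and 8.01% with main transcript lengths, an alternative chosen after seeing the data.

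With a replicate block the counts were 8071, 4085 and 3662 genes, against 8042, 3768 and 3407, and 5 members were called between the knockdowns, with PARP2 lower (-0.62, adjusted p = 0.0282) and MACROD1 higher (0.43) added. The replicate numbers share only a number: deviations of same-numbered libraries correlated at -0.0814 to 0.141.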
